A study of Mus musculus with 2 samples.

Results

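The Sfmbt2 array is a run of microRNA hairpins inside a single intron of Sfmbt2, most of them named Mir297, Mir466, Mir467 or Mir669. Its members were taken by position: every gene in the deposited count files that the GENCODE M21 annotation of mm10 places on the plus strand of chromosome 2 within an interval that encloses Sfmbt2 with 510 bp to spare before the gene and 747 bp after it. The rule found 107 of the 1973 listed genes. By symbol, 20 are Mir669 genes, 20 are Mir466 genes, 14 are Mir467 genes, 5 are Mir297 genes and 48 carry a provisional Gm name.

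MicroRNAs are short RNAs of about the length of a sequencing tag; they are cut from the arms of a hairpin and guide the repression of messenger RNAs, chiefly through a seed near their 5′ end. Sfmbt2 encodes a Polycomb group protein, and in the mouse it is an imprinted gene that is read from the paternal allele in extraembryonic tissues. The hairpins in its intron form one of the largest microRNA arrays of the rodent genome and are best known from the placenta. Read counts do not tell the parental alleles apart.

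The data are small RNA counts from limb tissue of the mouse strain B6NCrl at embryonic day 11.5, from healthy embryos of both sexes. The labels give a single group with 2 biological replicates, pooled from 109 embryos (replicate 1) and 88 embryos (replicate 2). No genotype, treatment or second tissue was compared, and whole limbs mix all cell types, so fewer expressing cells and less RNA per cell cannot be told apart. The labels give both pools the same donor identifier, so SDs measure only the spread between these samples. The p-values and the errors of log2 ratios rest on counting error alone, without that spread.

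The libraries held 2953085 and 3459176 counts on the sense strand of microRNA genes. Levels are given as CPM, which are counts scaled to a common total of those sense counts. Limb markers from the Hox clusters ranged from 45.0 and 43.1 CPM at Mir196a-1 in replicates 1 and 2 to 72172 and 68466 CPM at Mir196b. Mir196a-2, Mir10a and Mir10b lay between them. Mir196a-1 and Mir196a-2 are numbered copies, and any reads that they share would be missing from their values. Markers of other tissues that a dissection could carry were uneven. The blood marker Mir451a had 331 and 451 CPM, above Mir669l of the array, and was higher in replicate 2 (log2 ratio 0.43, adjusted p = 1.5e-12 by the exact binomial test between the libraries described with the array's ratios). Mir208b, taken here as a heart marker, had 31.2 and 8.67 CPM and was lower in replicate 2 (log2 ratio −1.84, adjusted p = 7.46e-10 by the same exact test). Both p-values rest on counting error alone, and 21.3% of all 422 genes tested in this way were called. Mir144 of blood had 36.6 and 30.6 CPM, Mir122 of liver had 21.7 and 14.7 CPM, and Mir208a of heart had 5.08 and 1.73 CPM. Of the neural markers, Mir9-3 had 2.03 and 2.31 CPM, Mir9-2 and the 3 Mir124 genes had no count, and Mir9-1 was not listed. The Mir9 and Mir124 genes are numbered copies, and reads shared between copies are kept elsewhere, so these values do not bound neural RNA. The part of blood or heart RNA in the array's counts was not tested. Whether Mir208b came from heart or from other muscle was not tested either. A count of 0 allows up to 3 counts, or 1.02 CPM (replicate 1) and 0.867 CPM (replicate 2), and the upper end of the two-sided Wilson interval at 0 counts is 1.30 and 1.11 CPM. Both bound only reads that the files assign to the hairpin, not its level, since reads shared with copies are kept elsewhere. These limits and all Wilson 95% intervals measure counting error alone, since PCR copies of a molecule are not independent.

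Mature sequences of relatives outside the array are shown first, to give the letters of these families and not as near-identical copies of members. They are the RefSeq sequences (GRCm38.p6) of Mir467, Mir466 and Mir669 genes on other chromosomes, written 5′ to 3′ with the seed, bases 2 to 8, in capitals.
mmu-miR-467g: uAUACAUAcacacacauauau
mmu-miR-467f: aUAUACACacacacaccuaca
mmu-miR-466i-3p: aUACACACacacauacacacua
mmu-miR-466k: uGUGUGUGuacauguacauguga
mmu-miR-669n: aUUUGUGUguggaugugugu
mmu-miR-467h: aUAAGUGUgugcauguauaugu
They are built largely from alternating purines and pyrimidines, with stretches of AC or GU. The same letters recur in the array. The seed of miR-467g, AUACAUA, was found on the RNA strand of 66 of the 107 member hairpins (61.7%), against 6.49% of the 2202 microRNA hairpins of GENCODE M21. For the seed of miR-466i-3p, UACACAC, the member count was 51 (47.7%, against 8.17%). For that of miR-466k, GUGUGUG, it was 38 (35.5%, against 9.54%). The seed of miR-467h, UAAGUGU, occurred in 1 member, Mir467e, and in 0.636% of all hairpins. On the opposite strand AUACAUA occurred in 10 of the 107 member hairpins, UACACAC in 75 and GUGUGUG in 61. UACACAC and GUGUGUG were thus found in more members there than on the RNA strand. Over all 2202 hairpins the opposite-strand shares were 4.63%, 9.85% and 8.99%. These motifs share repeat letters with each other, and a match describes the hairpin's letters, not a mature product.

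The repeat letters run through nearly the whole array. Of the 107 member hairpins, 103 hold TGTGTG or its reverse complement CACACA (96.3%), compared with 274 of the 1787 other listed genes that have a hairpin sequence (15.3%). In the median member 48.6% of neighbouring base pairs of letters were TG, GT, CA or AC, against 26.6% in the other genes. Members were also poorer in G and C, with a median GC content of 38.3% against 52.0%.

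All 107 hairpins lie in intron 11 of the protein-coding Sfmbt2 transcript with the most exons (23 exons). Sfmbt2 (ENSMUSG00000061186.15) runs on the plus strand of chromosome 2 from 10370510 to 10595253, and that intron from 10461473 to 10523944. The first member starts at 10465287 and the last ends at 10518279, a span of 53.0 kb. No member overlaps an annotated Sfmbt2 exon. The array is partly a tandem repeat: the 10 Mir467a copies start between 2413 and 4880 bp apart, with a median of 2462 bp.

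In limb the array gave 0.261% ± 0.009 of all sense counts (SD, n = 2). The counts were 7889 in replicate 1, or 0.267% (Wilson interval 0.261 to 0.273%), and 8799 in replicate 2, or 0.254% (0.249 to 0.260%). The share was therefore slightly lower in replicate 2, by more than counting error, which leaves out the wider spread between libraries. Mir467d, the 1 member called lower between the libraries, held 35.0% of the array's counts in replicate 1 and 32.7% in replicate 2. The opposite strand held 0 counts at every member in both libraries. For scale, the imprinted Dlk1-Dio3 array (53 plus-strand genes on chromosome 12, from 109544541 to 109747960) took 4.50% and 4.87% of the sense counts.

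Few hairpins carried these counts. A sense count in both libraries was found at 16 of the 107 members (15.0%), compared with 28.2% of all listed genes. At 10 CPM or more in both libraries, the level called detected here, there were 8 members (7.48%), while 15.0% of all listed genes reached it. The other members with counts were 8 with 3 to 24 counts summed over both libraries and 10 with 1 or 2, and 81 had none. The 3 most abundant members held 77.3% ± 1.2 of the array's counts (SD, n = 2), the first 5 held 95.4% ± 0.09 and the 8 detected ones 99.5% ± 0.01.

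**Figure D1:**
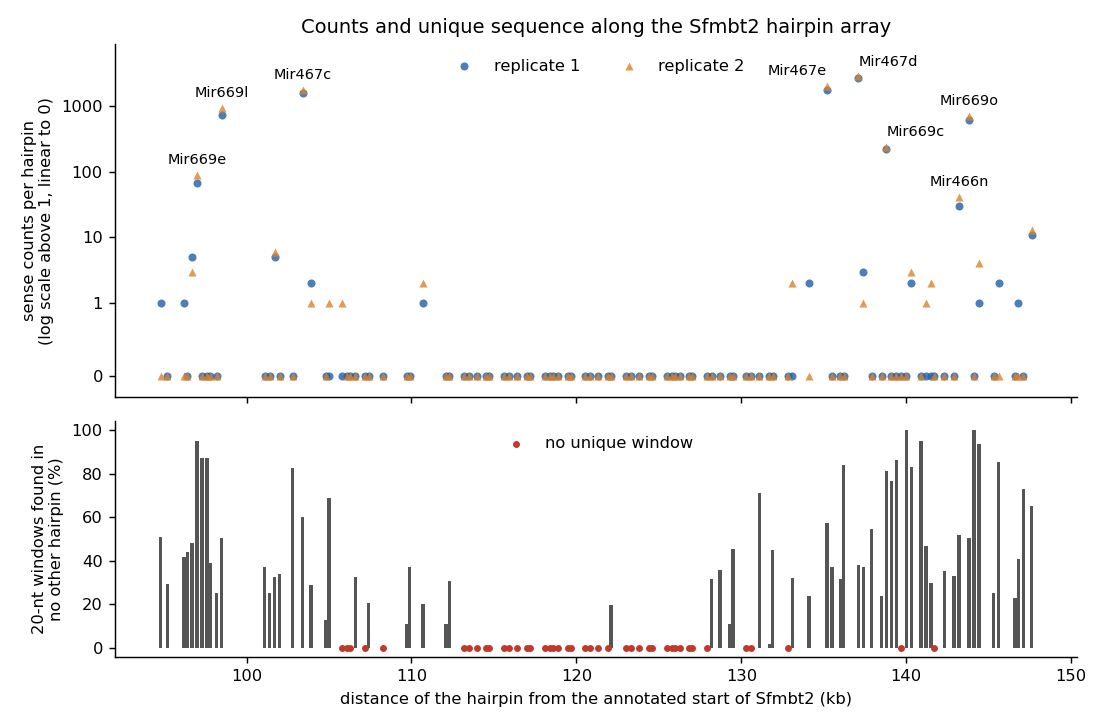
The upper panel plots sense counts of each of the 107 hairpins in replicate 1 (circles) and replicate 2 (triangles) against the distance from the annotated start of Sfmbt2 in kb, on a scale that is logarithmic above 1. The lower panel plots the share of 20-nt windows of each hairpin found in no other annotated hairpin, with red points for the 42 hairpins that have none. The 8 detected hairpins lie toward both ends of the array, and 60 hairpins between Mir467c and Mir467e held 5 and 7 counts.

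Mir467 hairpins led the array. Mir467d (ENSMUSG00000077021.2, chromosome 2 from 10507630 to 10507714) had 2762 counts in replicate 1 and 2875 in replicate 2, or 935 and 831 CPM. It ranked 101st of the 1973 listed genes by summed count. Mir467e (ENSMUSG00000076948.2, 10505721 to 10505807) had 1805 and 2055 counts, or 611 and 594 CPM. Mir467c (ENSMUSG00000077049.2, 10473931 to 10474027) had 1598 and 1797 counts, or 541 and 519 CPM. Both libraries gave the order Mir467d, Mir467e, Mir467c, and in neither did the Wilson intervals of neighbours in that order overlap. The rest of the family was near or at 0: Mir467b had 1 and 2 counts, Mir467a-1 had 0 and 1, and the 9 other Mir467a copies had none. As a family, the 14 Mir467 members took 0.209% and 0.195% of the sense counts.

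Mir669 hairpins followed at lower levels. Mir669l (ENSMUSG00000076959.1, 10468971 to 10469068) had 735 and 954 counts, or 249 and 276 CPM in replicates 1 and 2. Mir669o (ENSMUSG00000077086.1, 10514300 to 10514395) had 630 and 707 counts, or 213 and 204 CPM. Mir669c (ENSMUSG00000076118.1, 10509296 to 10509404) had 225 and 239 counts, or 76.2 and 69.1 CPM. These 3 hairpins kept that order in both libraries, with no overlap of intervals between neighbours. Mir669e (ENSMUSG00000080653.1, 10467495 to 10467613) had 67 and 90 counts, or 22.7 and 26.0 CPM. Below the detection level, Mir669h had 11 and 13 counts, Mir669f had 5 and 3, and Mir669a-3 had 2 and 1. The remaining 13 of the 20 Mir669 members had none. The family took 0.0567% of the sense counts in replicate 1 and 0.0580% in replicate 2.

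Mir466 and Mir297 hairpins held few counts. Mir466n (ENSMUSG00000077991.1, 10513741 to 10513834) was the 1 detected Mir466 gene, with 30 and 42 counts, or 10.2 and 12.1 CPM; its Wilson intervals, 7.12 to 14.5 and 8.98 to 16.4 CPM, include the detection level. Mir466h had 1 and 4 counts and Mir466 had 3 and 1. Of the 5 Mir297 genes, Mir297a-2 had 5 and 6 counts, Mir297b had 0 and 1, and the other 3 had none. The 48 Gm-named entries held 6 counts in replicate 1 and 4 in replicate 2, of which Gm22925 had 2 and 3.

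Order among the 16 members with 3 or more summed counts could be read only for the upper part. From Mir467d down to Mir669h each of the 8 steps separated intervals in both libraries, while from Mir669h down intervals of neighbours overlapped at all 7 steps. The order of the first 9 was the same when CPM was divided by hairpin length. A mature microRNA has a similar length whatever its hairpin, so both scales are given only as orders.

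**Figure D2:**
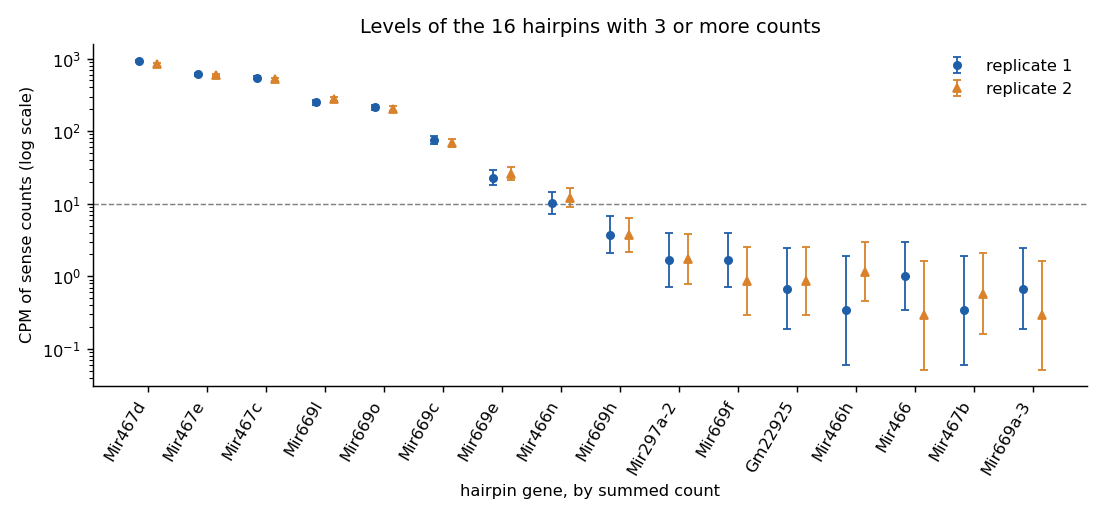
Points give the CPM of sense counts (log axis) of the 16 members with 3 or more summed counts in replicate 1 (circles) and replicate 2 (triangles), and bars give Wilson 95% intervals. The dashed line marks the detection level of 10 CPM. Levels fall from 935 and 831 CPM at Mir467d to under 4 CPM from Mir669h on, where the intervals of neighbours overlap.

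Near-identical copies limit these values. The files keep reads that map to several places in a line of their own, which held 1644176 reads in replicate 1 and 1738400 in replicate 2, 24.7% and 23.4% of all reads. That is 208 and 198 times the counts of the whole array. How many of those reads belong to the array is not recorded. With such reads set apart, a read counts toward a hairpin only where its letters differ from those of every other place in the genome. Here each hairpin was compared with all 2202 annotated hairpins, not with the whole genome.

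By that measure 105 of the 107 members share at least one 20-nt stretch with another hairpin (98.1%), compared with 47.4% of the other listed genes that have a hairpin sequence and 9 of 53 genes (17.0%) in the Dlk1-Dio3 array. Mir466g and Gm22239 share none. In 42 members (39.3%) every 20-nt window recurs in another hairpin, so that a read of that length matches at least 1 other annotated hairpin; this held for 222 of the other genes (12.4%). Of those 222, 8 had counts, 62597 and 72108 in all. In 5 of the 8, with 62079 and 71725 counts, the matching hairpin overlaps the gene at the same place in the genome, as Mir30f does Mir30e, and in the other 3 it does not. None of the 42 members overlaps another annotated hairpin. The median member had 25.3% of its windows to itself. A median member shared a stretch with 16 other hairpins of the array, and within the array the widest sharing, at Mir669o, reached 56. Outside the array 32 members share a stretch with at least 1 hairpin, and Gm24342 with 110.

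Whole hairpins are also repeated letter for letter. The 107 members have 84 distinct hairpin sequences, and 38 members belong to 15 sets of identical hairpins. In the widest set 7 members are identical: Mir467a-2, Mir467a-4, Mir467a-5, Mir467a-7, Mir467a-8, Mir467a-9 and Gm25022. Mir467a-3, Mir467a-6 and Mir467a-10 form another set, and so do Mir466b-4, Mir466b-6 and Gm25943. Pairs of Mir467a copies were 98.8% identical at the median (45 pairs, of which the least alike were 86.7% identical). Identity is taken over the longer hairpin, and Mir467a-1 is annotated at 73 nt against a median of 83 nt, which lowers the values of its pairs. In addition, 12 hairpins that M21 places in the interval, 9 of them Mir669a copies, are not listed in the files under their M21 identifiers and were not analysed here, although they count as copies of the members.

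Counts were then set against the unique letters. The 42 members with no unique window held 0 counts in replicate 1 and 1 in replicate 2, the 1 being at Mir467a-1. The 40 members with some unique windows but under 50% held 2782 and 2893 counts, of which Mir467d alone had 2762 and 2875. The 25 members with 50% or more held 5107 and 5905. Detection was 0 of 42, 1 of 40 (2.5%) and 7 of 25 (28%) in these classes. The upper split rests on members next to the 50% border: with 18-nt windows, Mir669l, Mir669o and Mir466n fall below it (46.9%, 41.8% and 45.5%), and detection is 0 of 42, 4 of 44 and 4 of 21. Among all other genes with a hairpin sequence it was 4 of 222 (1.80%), 7 of 276 (2.54%) and 276 of 1289 (21.4%). These shares are a description, and no difference between the array and the other genes was tested.

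**Figure D3:**
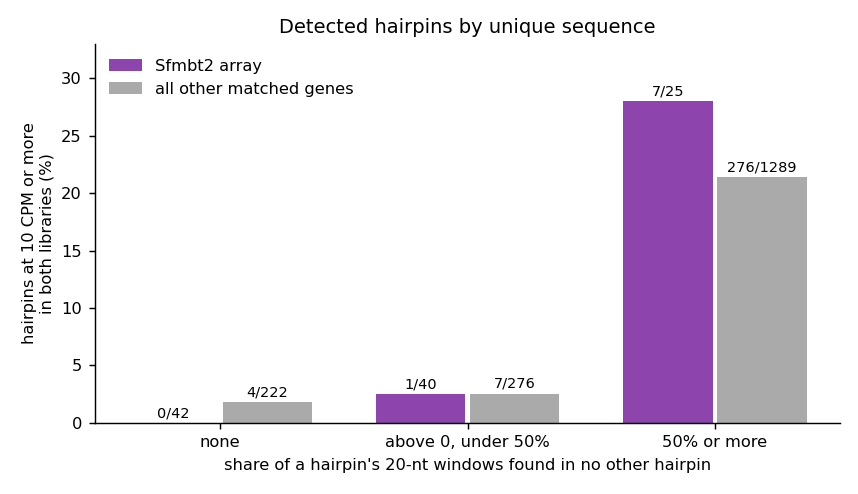
Bars give the percentage of hairpins at 10 CPM or more in both libraries, by the share of the hairpin's 20-nt windows found in no other annotated hairpin, for the Sfmbt2 array and for all other genes matched to a hairpin; the numbers above are detected hairpins over all hairpins in the class. The bars stand at 0 of 42, 1 of 40 and 7 of 25 in the array and run from 4 of 222 to 276 of 1289 elsewhere; with 18-nt windows, 4 of 44 and 4 of 21 array hairpins are detected in the upper classes.

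Unique letters did not always come with counts. Of the 25 members with 50% or more unique windows, 12 had no count in either library. They include Mir466g, whose hairpin shares no 20-nt stretch with any other, Mir669b with 87.2% unique windows and Mir669i with 73.1%; the other 9 are Gm-named. Mir466h, with 93.5% unique windows, had 1 and 4 counts. For such hairpins copies among annotated hairpins leave most windows free; matches elsewhere in the genome were not searched.

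Within the detected hairpins the unique letters are unevenly placed, which bears on which arm can be counted. Mir467d, with the most counts, has the smallest unique share of the 8 detected members, at 37.9% of its windows. Split at the midpoint of the hairpin, the unique share was 57.6% on the 5′ side and 18.2% on the 3′ side. It shares 41 of its 66 windows with Mir467a-5. Mir467e has 57.4% unique windows, 58.8% on the 5′ side and 55.9% on the 3′ side. In Mir467c the 3′ side is the more distinct, with 76.9% against 43.6%. Mir467c and Mir467e share 29 windows with each other. Mir467d shares 15 windows with Mir467c and 15 with Mir467e. Taken over the longer hairpin, identity is 84.5% for Mir467c and Mir467e, 83.5% for Mir467c and Mir467d, and 92.0% for Mir467d and Mir467e. Mir467c is annotated at 97 nt, Mir467e at 87 nt and Mir467d at 85 nt, so the difference in length lowers the values with Mir467c. These percentages therefore do not rank the pairs by likeness. A read from a shared 3′ stretch of Mir467d would be missing from its count, so the order of these 3 is an order of uniquely placed reads.

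Among the detected Mir669 hairpins, Mir669e was the most distinct, with 95 of its 100 windows unique, and Mir669c followed with 81.1%, including every window of its 3′ side. Mir669l (50.6%) shares 38 of its 79 windows with Mir669d, a neighbour with no counts. Mir669o (50.6%) shares 33 of its 77 windows with Mir669a-1, which also had no counts. In Mir466n 92.1% of the 3′ windows and 10.8% of the 5′ windows are unique. It shares 28 of its 75 windows with Mir466d, which had 0 and 2 counts. The files count whole hairpins, so which arm gave the reads is not recorded.

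**Figure D4:**
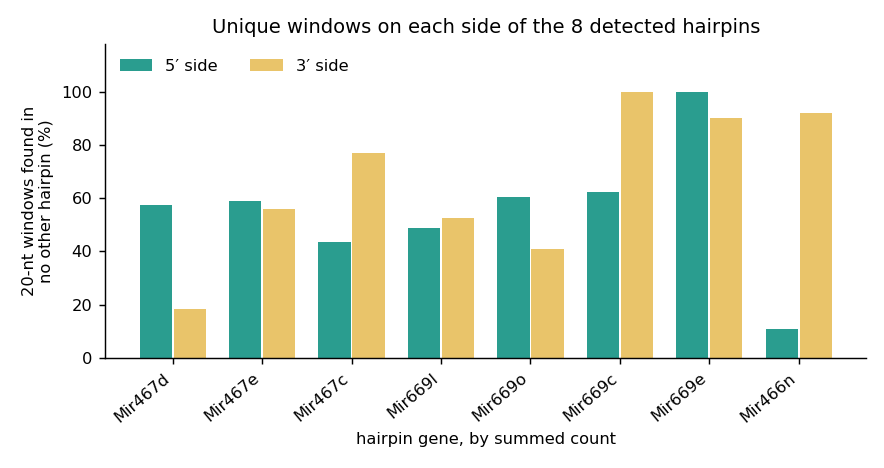
Bars give the percentage of 20-nt windows found in no other annotated hairpin, separately for windows centred on the 5′ and 3′ side of the midpoint of the 8 detected hairpins, ordered by summed count. Mir467d has more unique windows on its 5′ side (57.6% against 18.2%). Mir466n (92.1% against 10.8%), Mir467c (76.9% against 43.6%) and Mir669c (100% against 62.2%) have more on their 3′ side.

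Along the intron the counts lay toward both ends of the array; the borders used here, Mir467c and Mir467e, were chosen after the counts had been seen. The 17 members up to and including Mir467c held 2412 and 2850 counts, with 3 detected. The 60 members between Mir467c and Mir467e, a stretch of 31.7 kb, held 5 and 7 counts, with none detected, and 40 of these 60 have no unique window. The 30 members from Mir467e on held 5472 and 5942 counts, with 5 detected, and 2 of them have no unique window.

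Mir297, Mir466, Mir467 and Mir669 genes outside the array were nearly without counts. The files list 10 of them, on 7 chromosomes, and together they held 0 counts in replicate 1 and 1 in replicate 2, at Mir466q. All 10 have at least some unique windows, from 35.1% in Mir297-1 to every window in Mir669n.

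Between the libraries, 1 of the 10 members with enough counts to be tested was called. Replicate 2 was set against replicate 1 by an exact binomial test at each of the 422 genes with 10 or more summed counts, with Benjamini-Hochberg adjustment over all of them; the test compares these libraries, not conditions. It called 1 of the 10 tested members, compared with 21.3% of all tested genes (11.8% lower and 9.48% higher in replicate 2). Mir467d was lower in replicate 2, with 935 CPM in replicate 1 against 831 CPM, a log2 ratio of −0.18 with a counting error of 0.04 (exact binomial test, adjusted p = 1.82e-05). That call was lost when the overdispersion was taken from the mean over all genes, a form added after the data had been seen. Mir467e, of the same family, had a log2 ratio of −0.05 and Mir467c of −0.07, and neither passed.

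The 7 other tested members did not pass either. Mir669l had a log2 ratio of 0.14 with a counting error of 0.07 (adjusted p = 0.188 by the exact binomial test), Mir669e of 0.18 with 0.23 and Mir466n of 0.24 with 0.34. Mir669o stood at −0.07 and Mir669c at −0.15. For Mir669h and Mir297a-2, with 24 and 11 summed counts, the ratio was within 0.01 of 0 and its counting error 0.58 and 0.84, so only a large difference could have been seen. The median absolute log2 ratio was 0.10 over the 10 members and 0.14 over all 422 genes.

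**Figure D5:**
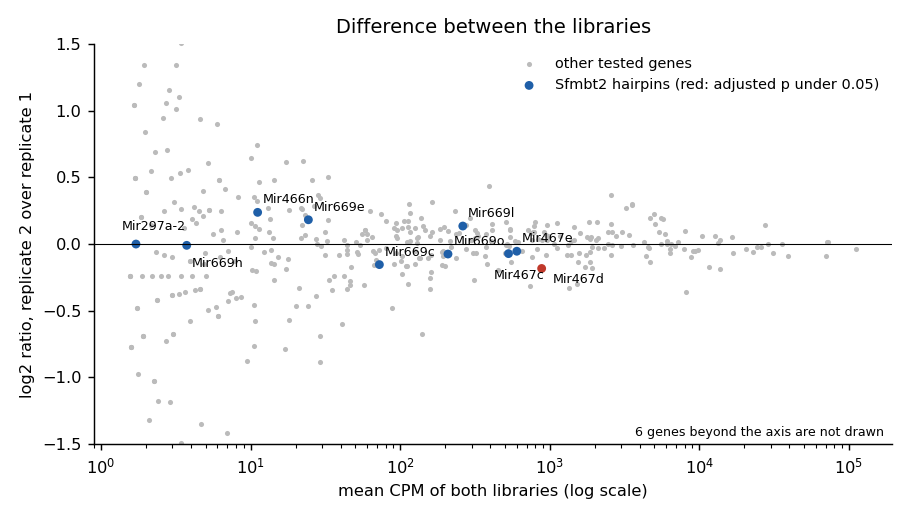
Each point is 1 of the 422 tested genes, with mean CPM on a log axis and the log2 ratio of replicate 2 over replicate 1 on the vertical axis; blue and red points are the 10 tested members. Mir467d, in red at −0.18, is the single member that passed the exact binomial test; 6 genes beyond ±1.5, none of them a member, are not drawn.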

How the data were processed

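The deposited files give raw read counts per microRNA gene, made by the authors on assembly mm10 with GENCODE annotation M4, per the text notes deposited with each sample; the aligner is not given in the sources used here, nor is the counter. Of 3 count columns the sense column was used; the unstranded column equals the sum of the other 2. Lines for unmapped (23.6% and 23.5% of reads), multimapping (24.7% and 23.4%) and unassigned reads (7.44% and 6.47%) stayed out of library totals.

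Positions, symbols, Sfmbt2 exons and hairpin sequences came from GENCODE M21 (mm10), matched by identifier without version: 1894 of 1973 genes matched, and the 79 others, which hold 4 counts, could not be placed. No member has an entry in the RefSeq microRNA table, so no mature sequence of a member was used. The planned count of genomic sites per mature sequence, and the part of the naming rule that needs it, were not run.

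CPM used all sense counts. Members with 3 or more summed counts are named with their values, as are outside family members at 10 CPM, of which there were none; members with many unique windows and no counts, and the groups by unique windows and by position, were chosen after values were seen. Shared sequence means an identical 20-nt window on either strand of another M21 hairpin. Identity is from global alignment (Biopython 1.88) over the longer hairpin. The libraries were compared with a two-sided exact binomial test on TMM-scaled totals (edgeR 4.0.16, R 4.3.3), Benjamini-Hochberg at 0.05, and a prior count of 0.5 in log2 ratios; edgeR's quasi-likelihood test needs a second group. The test was checked on simulated libraries that held counting error alone. That check does not cover the wider spread between these libraries, with an overdispersion of 2.64 (median gene) or 18.95 (mean over genes). Python 3.11.15 with scipy 1.17.1 did the rest. Intervals are Wilson 95%. The array and all lists were chosen with earlier results of these data known. Alternatives covered detection level, column, denominator, scaling, filter, test, prior count and window length.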

Additional observations from a re-analysis of the deposited data

How the results depend on the processing

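The array's share of 0.261% of sense counts was 0.1185% of all reads in the files, unmapped and multimapping ones included, and 0.537% when the 10 most abundant genes were left out of the denominator. It was 0.255% with the unstranded column and 0.254% and 0.267% without replicate 1 and without replicate 2. At 100 CPM, 5 members were detected in place of 8, and at 1 CPM 10; with the unstranded column 7 were, as Mir466n stood at 9.94 CPM in replicate 1. Mir467d remained the 1 member called between libraries under total-count scaling, DESeq2 size factors (DESeq2 1.42.0), no filter, a filter of 50 counts, the unstranded column and an overdispersed test based on the median gene; the count was 0 when that test took the mean overdispersion, which was chosen after seeing the data and left 12 calls over all genes, 5 higher and 7 lower. With total counts as scaling the log2 ratios of Mir297a-2 and Mir669h turned positive, at 0.0128 and 0.0031, far inside their counting errors. Windows of 18 and 22 nt left 105 members that share sequence and 42 without a unique window, the latter alternative also added after seeing the data. Detected members among those with 50% or more unique windows numbered 7 of 25, but 4 of 21 with 18-nt windows and 7 of 29 with 22-nt windows, both likewise added. No paired analysis was possible because the series holds a single group. Depth limits members with few counts, and copies outside annotated hairpins were not searched.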

Other observations

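Predicted folding of the detected hairpins overlapped in range with that of the hairpins listed at 0 counts, of which 41 of 81 have no unique window. The minimum free energy per nucleotide, predicted with ViennaRNA 2.7.2, had a median of −0.402 kcal/mol in the 8 detected members (range −0.573 to −0.298) and of −0.365 in the 81 members without counts (−0.529 to −0.209). Over all listed genes with a hairpin the median was −0.379. Mir466n had the lowest value of the array. Named families folded more tightly at the median (−0.445 for Mir467, −0.424 for Mir466, −0.387 for Mir669, −0.374 for Mir297) than the Gm-named members (−0.293), whose hairpins were also longer, at a median of 121 nt against 83 nt for Mir467.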
